A study of Rattus norvegicus with 32 samples.

Results

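The soma libraries are the 16 of 32 libraries in the series whose title contains Soma, each holding the poly-A RNA of the cell body of 1 cultured rat hippocampal neuron. Wildtype Sprague Dawley embryos supplied the neurons at embryonic day 18, and the cells were kept in culture for 15 days. The labels call every cell a pyramidal neuron. A micropipette drew out the soma, and the RNA went through 3 rounds of antisense RNA amplification before stranded library preparation. No treatment, mutant or control group is named for these libraries, so they form 1 group, and the values below describe how single neurons differed from each other, with no test. The somata carry the labels' numbers: 7, 8, 9, 11, 13, 14, 15, 18, 20, 21, 22, 23, 25, 26, 27 and 28. The sources used here do not tie a numbered neuron to a culture or day, so the spread between somata includes any spread between cultures, days and amplification reactions.

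Hippocampal pyramidal neurons are excitatory cells that release glutamate and carry long dendrites and an axon built on microtubules. Young pyramidal neurons in culture make large amounts of tubulin and growth cone proteins while they extend these processes. Transcripts that every cell needs in similar amounts, such as those for ribosomes and energy metabolism, are commonly thought of as housekeeping transcripts, whereas transcription factors, neuropeptides and activity-induced genes are known to differ between neuron types and states.

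Counts assigned to the 17216 genes ranged from 878125 in soma 25 to 24721811 in soma 15, with a median of 15629500. Levels are given as CPM, counts scaled to a total of 1000000 gene counts per library, with the spike-in rows left out of the total. At 100 CPM the shallowest library still held 87.8 counts and the deepest 2472. A gene at 0 counts was limited to 0.121 CPM in the deepest and 3.42 CPM in the shallowest library, the level that 3 counts would give. Such limits cover counting error only, because amplified reads without molecular identifiers are not independent molecules. No pair of libraries agreed within sampling noise, since the lowest chi-square over genes was 269 per degree of freedom, for somata 9 and 25. Soma 25 was also the shallowest library. The chi-square takes reads as independent, so it cannot tell separately amplified RNA of the same cell from RNA of different cells. Each library was treated as its own cell because the labels number the somata separately.

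Somata 8 and 9 held markers that go against the label of pyramidal neuron, and this touches several results below. Tuba1a and Gap43 had counts in every soma, as did Neurod6, a transcription factor of excitatory forebrain neurons. Neurod6 ranged from 47.1 CPM in soma 14 through a median of 840.4 CPM to 4578 CPM in soma 20, and soma 8 held 61.8 CPM. Low Neurod6 was thus found in somata 8, 13 and 14, all under 100 CPM, while the other 13 lay above 300 CPM. Markers of inhibitory neurons, which make and release GABA, were concentrated in somata 8 and 9. Gad1, which makes GABA from glutamate, was at 11161 CPM in soma 8 and 545 CPM in soma 9. Its partner enzyme Gad2 was at 233 CPM in soma 8 and 37.2 CPM in soma 9, and no other soma exceeded 0.0601 CPM.

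Several other inhibitory neuron genes were also highest in somata 8 and 9. Of those described next, Slc32a1 and Lhx6 are outside the rule for named genes and were picked after their values were seen. The vesicular GABA transporter Slc32a1 was at 817 CPM in soma 8 and 212 CPM in soma 9, against at most 71.5 CPM elsewhere. Lhx6, a transcription factor of migrating interneurons, was at 72.2 CPM in soma 8 and 23.3 CPM in soma 9, and at 0 counts in the other 14. Somatostatin (Sst), a peptide of one interneuron class, stood at 858 CPM in soma 9 and 36.6 CPM in soma 8, with 26.1 CPM as the highest value elsewhere. Summed over the 14 GABAergic markers in the files, soma 8 had 17375 CPM and soma 9 had 2311 CPM, against a median of 165 CPM over all 16 somata. Both libraries also held Tuba1a, and soma 9 held 589 CPM of Neurod6. Without these 2 libraries, the genes found in every soma numbered 1500 in place of 1499 and the median spread between cells, defined below, was 2.71 in place of 2.65. Single results that rest on them are given with and without them.

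Markers of other cell types were looked at next. Of 13 microglia markers, 10 had no count in any soma, and the summed level never passed 0.200 CPM. The 16 astrocyte markers summed to between 65.8 CPM in soma 20 and 1090 CPM in soma 23, with a median of 349 CPM. Gfap, the astrocyte filament protein, was at 0 counts in 12 somata and reached 8.87 CPM at most. Sparcl1, a secreted matrix protein, reached 606 CPM in soma 23, while in soma 11 the glutamate transporter Slc1a3 was at 194 CPM and the lipid carrier Apoe at 180 CPM. The part of astrocyte RNA in other results was not tested. Oligodendrocyte markers summed to a median of 2.33 CPM and at most 90.8 CPM in soma 20. Markers of vessels and fibroblasts had a median sum of 8.69 CPM and reached 606 CPM in soma 9, where Dcn, a matrix proteoglycan, made up 597 CPM. Markers of dividing progenitors had a median sum of 59.0 CPM and reached 666 CPM in soma 15, where Sox2, a stem cell transcription factor, made up 476 CPM. Oligodendrocyte precursor markers had a median sum of 33.7 CPM and reached 159 CPM in soma 21. Prox1, the marker of dentate granule cells, was at 0 counts in 14 somata and reached only 1.78 CPM.

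Some markers of mature neurons were low or uneven. Slc17a7, the vesicular glutamate transporter of mature excitatory cells, had 0 counts in 5 somata and a median of 0.139 CPM, with 76.0 CPM in soma 22. Camk2a, a synaptic kinase, had 0 counts in 9 somata and 60.4 CPM at most, in soma 9. Map2, the dendritic microtubule protein, had 0 counts in 2 somata, at least 10 counts in 11 somata and a highest value of 265 CPM in soma 11. By contrast Camk2b, the kinase's beta subunit, was present in all 16 somata, between 211 and 2209 CPM.

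The number of genes found differed between cells by less than the depth did. Genes with at least 1 count numbered 5901 ± 1228 (SD, n = 16), from 4427 in soma 28 through a median of 5583 to 8064 in soma 9. With at least 10 counts the range was 2974 in soma 28 to 6291 in soma 13. When every library was thinned at random to the 878125 gene counts of soma 25, genes with at least 1 count still ranged from 3224 in soma 28 to 6265 in soma 9. With at least 1 count, somata 7, 8, 9 and 13 held the most genes at either depth, and somata 11, 20, 27 and 28 the fewest. With at least 10 counts after thinning, soma 25 with 4334 genes stood above soma 8 with 4118.

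Spike-ins are synthetic RNAs of the ERCC set. The labels give neither the amount nor the step at which they were added. Their share of all counts ran from 0.0605% in soma 8 (exact binomial 95% interval 0.0592 to 0.0618%) through a median of 0.525% to 1.37% in soma 27 (1.36 to 1.38%). A low spike-in share went with many genes found. Across the 16 somata, Pearson's r between log2 spike-in share and genes with at least 1 count was -0.90 and Spearman's rho -0.95, and r was -0.87 without somata 8 and 9, the 2 farthest from the median share. After thinning, r was -0.94 and rho -0.98. Log2 gene counts had an r of 0.34 with genes found, and 0.09 after thinning. These are descriptions over 16 points that share 1 normalisation within each library. A smaller amount of neuronal RNA in the tube and a larger amount of spike-in cannot be told apart.

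**Figure D1:**
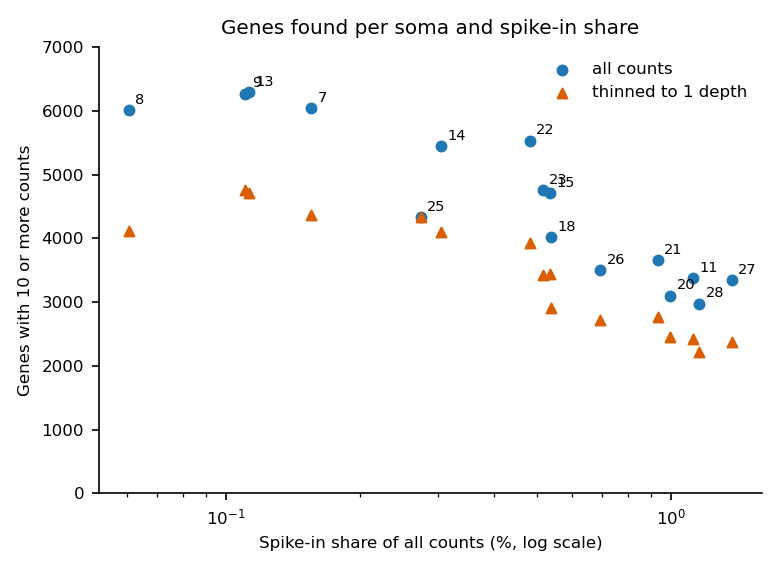
Genes with 10 or more counts (vertical axis) against the spike-in share of all counts in percent (horizontal log axis) for each of the 16 somata, with all counts (circles, numbered by soma) and after thinning to 878125 gene counts (triangles). Somata 7, 8, 9 and 13 lie at the upper left, and soma 28 is lowest with 2974 genes.

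Few genes took a large part of each library. The 20 genes with the highest counts held between 13.1% and 28.3% of gene counts, with a median of 16.2%. Between 107 genes in soma 20 and 409 genes in soma 9 made up the first 50% of counts, with a median of 241. Counts are not divided by transcript length, so the order of genes below is an order of counts and not of molecules.

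Cytoskeleton and growth genes led the list. Tuba1a, an alpha-tubulin of developing neurons, had 55247 ± 35402 CPM (SD, n = 16), from 17514 CPM in soma 11 through a median of 39778 CPM to 130770 CPM in soma 27. It was the top gene in 14 somata and its highest values were in somata 8, 20 and 27. Tubb2b, a beta-tubulin, ranged from 2412 CPM in soma 11 to 29293 CPM in soma 8, and Tubb2a from 1555 to 12718 CPM. Reads from near-identical tubulin copies cannot be assigned with certainty. Stmn2 and Stmn1, tubulin-binding proteins of growing axons, stood far apart in spread. Stmn2 was among the steadiest abundant genes, between 3735 and 12155 CPM, whereas Stmn1 ran from 371 CPM in soma 8 to 11299 CPM in soma 18. Gap43, a growth cone protein, ranged from 1126 CPM in soma 8 through a median of 6531 CPM to 14205 CPM in soma 20. Without soma 8, its SD of log2(CPM + 1) was 0.59 in place of 0.88, and the lowest value was 3939 CPM. Map1b and Mapt (tau), microtubule-associated proteins, had means of 4841 and 3602 CPM.

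Nnat had the largest spread of the 20 leading genes. This imprinted gene encodes neuronatin, a small membrane protein of the endoplasmic reticulum in developing neurons. Its level ran from 1637 CPM in soma 27 through a median of 5053 CPM to 42044 CPM in soma 18, and soma 11 held 38833 CPM. Somata 11 and 18 stood apart, since the third highest, soma 9, had 13616 CPM, and in both Nnat took the place of Tuba1a as the top gene. The mean of 9982 ± 12407 CPM (SD, n = 16) was therefore carried by 2 cells. Its SD of log2(CPM + 1) was 1.42, against 0.52 for Gnas, an imprinted signalling gene, which ranged from 2845 to 8508 CPM.

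The remaining leading genes belonged to membranes, signalling and energy metabolism. Rtn1, which shapes the endoplasmic reticulum, had a mean of 6314 CPM and an SD of log2(CPM + 1) of 0.56. Zwint, best known as a kinetochore protein and abundant in neurons, had a mean of 5795 CPM and an SD of 0.55. Cpe, an enzyme that trims neuropeptides, ranged from 1199 CPM in soma 28 to 17849 CPM in soma 7. Gpm6a, a membrane glycoprotein of growing processes, ranged from 1582 to 16981 CPM. Slc25a4, which exchanges ADP and ATP across the mitochondrial membrane, was highest in soma 8 at 16477 CPM and lowest in soma 20 at 912 CPM. Fth1, the ferritin heavy chain, ranged from 963 CPM in soma 20 to 14503 CPM in soma 11. The 14-3-3 genes Ywhae and Ywhag, the brain-enriched NDRG family gene Ndrg4 and the calmodulin gene Calm2 completed the 20, with means between 3240 and 5207 CPM. Of these 20 genes, 18 stayed among the leading 20 without somata 8 and 9.

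**Figure D2:**
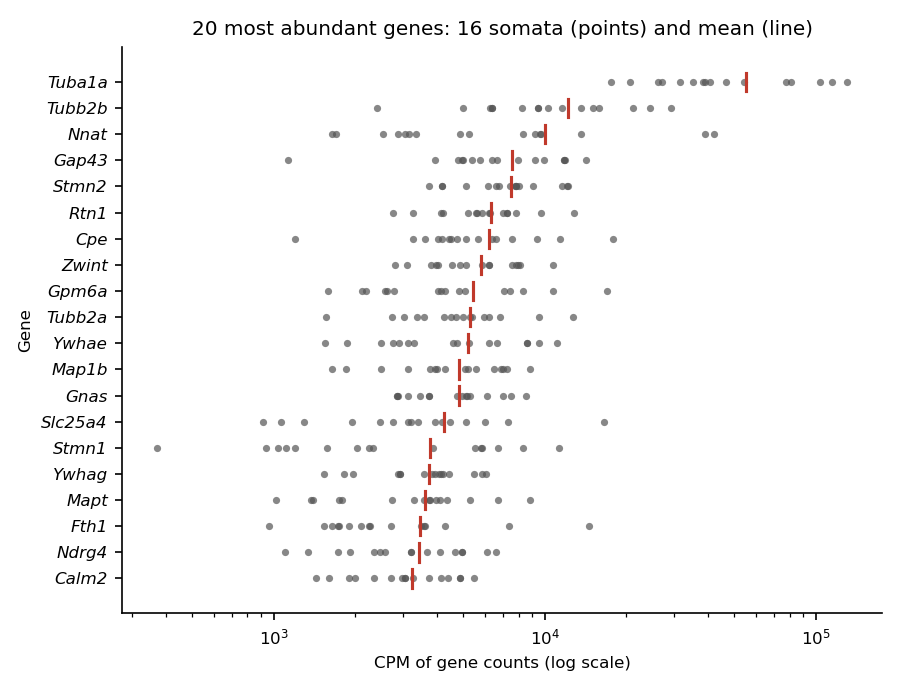
CPM (horizontal log axis) of the 20 genes with the highest mean CPM, with 1 point per soma (16 points per gene) and a red line at the mean. Nnat reaches 42044 CPM in soma 18 and Stmn1 falls to 371 CPM in soma 8, while Stmn2 stays between 3735 and 12155 CPM.

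Genes found in every cell were a minority of the genes found in any. Of 17216 genes, 5261 had no count in any soma and 11955 had at least 1 count in at least 1 soma. In all 16 somata, 1499 genes were found, which is 12.5% of the 11955, and 2020 genes (16.9%) were found in exactly 1 soma. The 1499 shared genes held a median of 70.9% of a soma's gene counts, between 65.0% and 78.2%. At a minimum of 10 counts, 832 genes were found in all somata and held a median of 55.5% of counts. The size of the shared set thus depends on the count minimum, and on depth, since thinning every soma to 878125 gene counts left 883 genes with at least 1 count in all 16. Leaving out the shallowest library, soma 25, gave 1526 genes, and leaving out soma 11 gave 1651.

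Most ribosomal, mitochondrial and protein-turnover genes on the lists were found in every soma. Of 47 large ribosomal subunit genes, 45 had counts in every soma, as had 28 of 32 small subunit genes. The list of oxidative phosphorylation, the mitochondrial respiratory chain and ATP synthase, had 53 of 63 members in every soma. For the proteasome and ubiquitin list it was 31 of 34, and for translation factors 23 of 27. Lists of neuronal signalling had fewer: 1 of 17 glutamate receptor genes, 3 of 14 GABA receptor genes, 3 of 25 immediate early genes and 4 of 28 voltage-gated channel genes were found in all 16. These lists also differ in level, and over all genes the share found in every soma was 8.71%. By level, that share was 11.4% at 30 to 100 CPM, 46.9% at 100 to 300 CPM and 86.6% at 300 to 1000 CPM. For members of 10 CPM or more, the median level was 48.4 CPM for channel genes and 327 CPM for proteasome and ubiquitin genes. How much of the contrast between lists follows level was not tested.

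Zero counts followed level. Genes with a mean of 10 to 30 CPM had a median of 7 somata at 0, and 42.8% of their values were 0. At 30 to 100 CPM the median was 3 somata and 23.1% of values, and at 100 to 300 CPM 1 soma and 7.93%. Of the 131 genes at 1000 CPM or more, 129 had counts in every soma and 0.143% of values were 0. At 100 CPM even the shallowest soma would hold 87.8 counts, yet of 1936 genes with a mean of 100 CPM or more only 1188 (61.4%) had counts in every soma. By soma, the share of these 1936 genes at 0 ran from 0.723% in soma 8 to 13.7% in soma 11, and was also under 2% in somata 9, 13 and 22.

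The genes with the most zeros at 100 CPM or more pass that mean only through the few cells where they are high, so their concentration is fixed by the choice and is given as a description. Wipf1, which binds the actin regulator WASP, had 0 counts in 12 somata and 2122 CPM in soma 28. Scara5, a ferritin receptor, had 0 counts in 12 somata and 1402 CPM in soma 28. Kcnj14, an inward rectifier potassium channel, had 0 counts in 12 somata and 1794 CPM in soma 20. Lactb, a mitochondrial beta-lactamase-like protein, had 0 counts in 11 somata and reached 1996 CPM in soma 21. Gadd45a, a stress and DNA damage response gene, had 0 counts in 10 somata and reached 1621 CPM in soma 26. In each of these 5, only 1 soma passed 1000 CPM, and it was not the same cell throughout. Over the 1829 genes of 10 to 30 CPM, the soma with the highest value supplied a median of 44.4% of a gene's summed CPM, and over genes of 1000 CPM or more 14.9%.

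Between-cell spread was measured as the SD over the 16 somata of log2(CPM + 1), where 1 CPM is the pseudocount that keeps zeros on the scale. Over the 5914 genes with a mean of 10 CPM or more, the median SD was 2.65. It was 2.44 at 10 to 30 CPM, 2.93 at 30 to 100 CPM and 2.93 at 100 to 300 CPM. It then fell to 2.04 at 300 to 1000 CPM and 0.97 at 1000 CPM or more. Single genes of the highest class ran from 0.51 for Klc1, a kinesin light chain, to 4.16 for Crym. Because the SD depends on level, each gene was compared with a smooth trend of SD on log2 mean CPM. Its deviation is the SD minus the trend, in log2 units, and 3082 of the 5914 genes (52.1%) lay above the trend. Few genes define the trend at its upper end, so deviations of the leading genes depend on the form of the trend and are not given one by one.

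**Figure D3:**
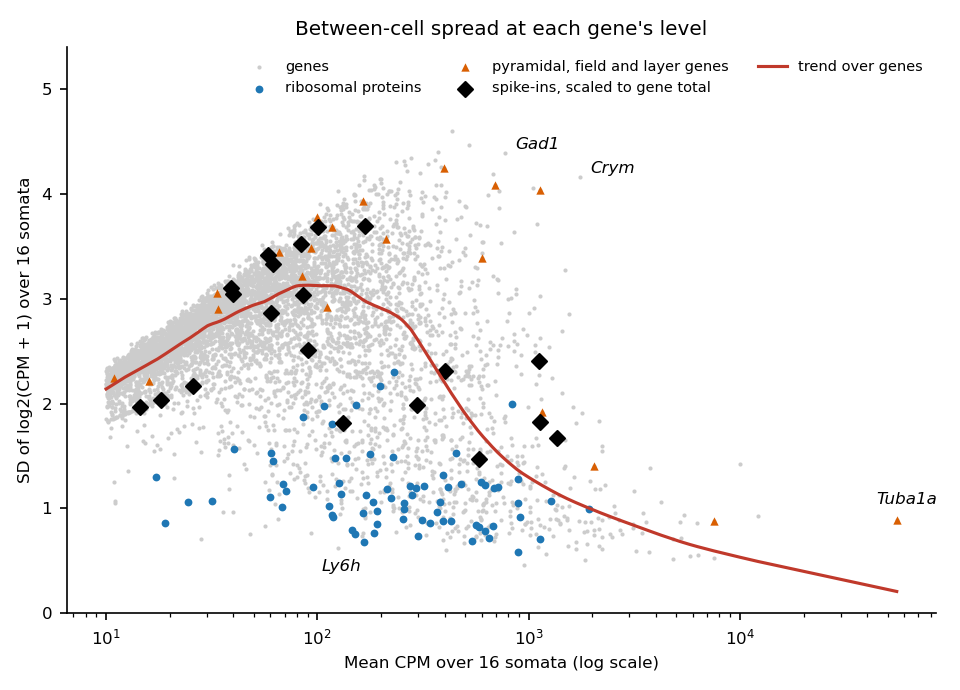
SD of log2(CPM + 1) over 16 somata (vertical axis) against mean CPM (horizontal log axis) for 5914 genes, with the trend (red), ribosomal protein genes (blue), pyramidal, field and layer markers (orange) and 20 spike-ins scaled to the gene total (black diamonds). Nearly all ribosomal protein genes lie below the trend, Crym lies 3.12 above it, and spike-ins lie on both sides.

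The genes furthest above their level's trend included transcription factors, an inhibitory neuron enzyme and neuronal structural genes. Crym, which encodes the thyroid hormone binding protein mu-crystallin, had the largest deviation among genes of 100 CPM or more, 3.12 above the trend. Its level ran from 0.22 CPM in soma 14 through a median of 393 CPM to 8410 CPM in soma 28. Somata 9, 21, 23, 25, 26, 27 and 28 were above 1000 CPM, while somata 14, 18 and 13 were under 10 CPM. Leaving out any single soma kept the deviation between 2.73 and 3.30, and it was 3.62 without somata 7, 8, 9 and 13.

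Gad1 was next, 2.92 above the trend, and its position rested on soma 8. The median over all somata was 1.12 CPM, 7 somata were at 0, and only soma 8 passed 1000 CPM. Without soma 8 the mean fell from 774 to 81.6 CPM and the deviation was 0.47.

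Bcl11b and Bhlhe22, transcription factors with roles in cortical and hippocampal neurons, deviated by 2.80 and 2.53. Bcl11b ranged from 0.50 CPM in soma 23 through a median of 327 CPM to 9367 CPM in soma 20, and was above 1000 CPM in somata 7, 9, 14, 20 and 27. Bhlhe22 ranged from 0 counts in soma 18 through a median of 398 CPM to 2007 CPM in soma 26, and was above 1000 CPM in somata 20, 21, 23, 25, 26 and 28. Soma 20 alone was above 1000 CPM for both, out of 5 somata for Bcl11b and 6 for Bhlhe22. Crym and Bhlhe22 shared 5 of the cells above 1000 CPM, somata 21, 23, 25, 26 and 28, out of 7 for Crym and 6 for Bhlhe22. Crym and Bcl11b shared 2, somata 9 and 27. These overlaps were looked at after the values were seen, and they describe 16 cells. The number that unrelated genes would share was not worked out, so none is read as high or low.

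Hnrnpm and Snrpa1, splicing proteins, deviated by 2.78 and 2.61, unlike the splicing factor list as a whole, of which 11 of 25 genes (44.0%) lay above the trend with a median deviation of -0.07. Hnrnpm had 0 counts in somata 14 and 18, a median of 789 CPM and a highest value of 4046 CPM in soma 20. Snrpa1 was under 10 CPM in 6 somata, 2 of them at 0 counts, and reached 3047 CPM in soma 11. Snhg11, a long noncoding RNA of neurons, deviated by 2.51, with 0 counts in 4 somata and 2999 CPM in soma 7. Its deviation was 0.90 without somata 7, 8, 9 and 13.

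Map7d2, a microtubule-binding protein, Ppm1l, a protein phosphatase, and Nefm, the medium neurofilament subunit, completed the 10. Map7d2 and Ppm1l were both highest in soma 7, at 4554 and 4873 CPM, and each was under 10 CPM in 4 somata. Nefm ranged from 0.40 CPM in soma 7 through a median of 483 CPM to 4484 CPM in soma 26. For Nefm, somata 8, 9, 18, 23 and 26 were above 1000 CPM, and somata 7, 11 and 22 were under 10 CPM. These 10 genes had means between 432 and 1750 CPM, and the ranking favours that level. The trend was 1.04 at the level of Crym and 2.10 at that of Snhg11, but 3.12 at 117 CPM. The largest SD of any gene at 100 to 300 CPM was 4.34.

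Of the 10 genes furthest below the trend, 6 encode ribosomal proteins. Ly6h, a membrane-anchored protein that modulates nicotinic receptors, had the lowest deviation, -2.49. Its level ran from 46.5 CPM in soma 8 through a median of 115 CPM to 238 CPM in soma 22, and no soma was far from the others. Rpl13, a large ribosomal subunit protein, ranged from 58.8 CPM in soma 8 through a median of 178 CPM to 312 CPM in soma 27, with a deviation of -2.30. Ybx1, an RNA-binding protein, ranged from 61.7 to 489 CPM and Actg1, a cytoplasmic actin, from 51.2 to 307 CPM. Rpl14, Rps20, Rpl12, Rpl38, Rps18 and Atp5e, a subunit of ATP synthase, had deviations between -2.28 and -2.16. The 10 genes had counts in every soma, with means between 117 and 185 CPM. This ranking favours that level, because an SD cannot be below 0 and the deviation cannot fall below minus the trend. The trend was 3.12 at the level of Rpl38 but 1.02 at that of Klc1, whose SD was 0.51. Median deviations of lists, given below, have the same limit.

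**Figure D4:**
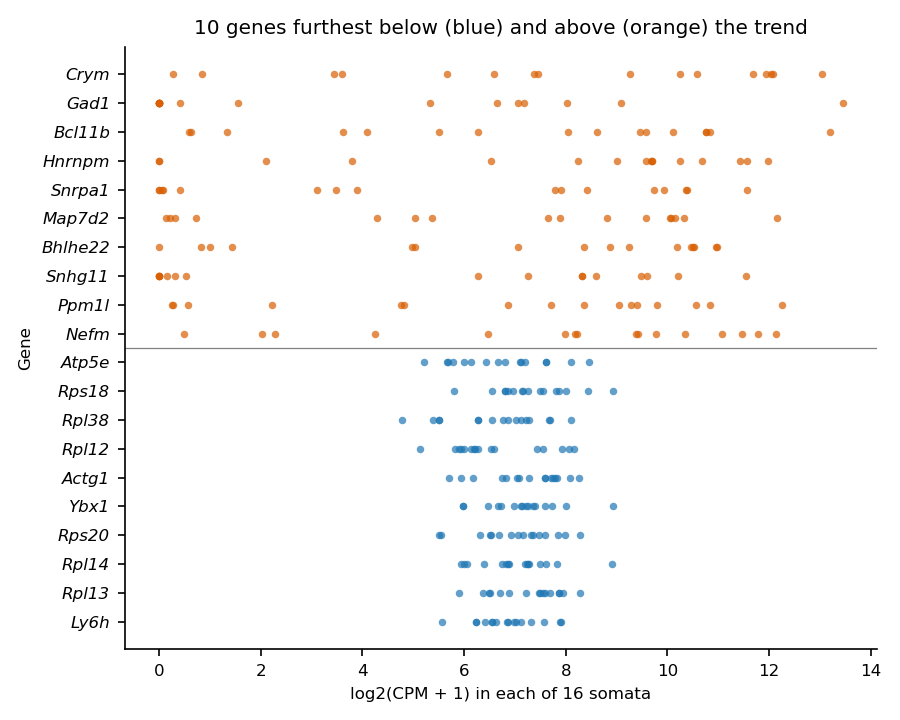
Values of log2(CPM + 1) (horizontal axis) in each of the 16 somata for the 10 genes furthest above the trend (orange) and the 10 furthest below it (blue), among 1936 genes with a mean of 100 CPM or more. Blue genes stay within about 5 to 9 log2 units, while orange genes spread from 0 to 10 or more.

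Common reference genes were steady for their level but not fixed. Gapdh, the glycolytic enzyme often used as a reference, ranged from 215 CPM in soma 20 through a median of 463 CPM to 1305 CPM in soma 25, with an SD of 0.74 and a deviation of -1.03. Actb, beta-actin, ranged from 45.3 CPM in soma 21 through a median of 237 CPM to 460 CPM in soma 11, with an SD of 1.03. Ppia, cyclophilin A, ranged from 160 to 925 CPM with an SD of 0.61, the smallest of these 3.

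Ribosomal protein genes had the lowest median deviations of the 34 lists with at least 3 members at 10 CPM or more. Of 45 large subunit genes with a spread, 44 lay below the trend, with a median deviation of -1.43. All 29 small subunit genes with a spread lay below it, with a median of -1.56. The median deviation over all 5914 genes was 0.02. The exception was Rpl3, with 4.70 CPM in soma 20 and 2400 CPM in soma 18, which lay 0.59 above the trend. The summed level did move between cells: small subunit genes together ran from 5516 CPM in soma 8 through a median of 10775 CPM to 26036 CPM in soma 11, and large subunit genes from 6599 CPM in soma 8 to 27570 CPM in soma 11. Soma 8 was lowest and soma 11 highest for both subunits. When the level of a gene was taken as its mean log2 value in place of the log2 mean CPM, the medians were -0.71 for large and -0.84 for small subunit genes. Ribosomal genes have many processed pseudogene copies, so counts of single members are uncertain.

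Other lists of cell maintenance also lay below the trend. Translation factors had a median deviation of -0.82, with 20 of 27 below. Oxidative phosphorylation genes had -0.80, with 47 of 59 below, and the list's summed level stayed within 2.44-fold, from 16565 CPM in soma 22 to 40393 CPM in soma 11. Proteasome and ubiquitin genes had -0.75, with 28 of 34 below, and glycolysis genes -0.62, with 11 of 14 below. Within each of these lists single members broke ranks: Ndufc2, a complex I subunit, lay 1.17 above the trend with 0 counts in soma 21 and 1296 CPM in soma 11. Psmc5, a proteasome ATPase, lay 1.59 above it, between 1.56 and 2382 CPM, and Pgk1, a glycolytic kinase, 0.97 above it with 0 counts in soma 28.

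Lists of transport and vesicles followed. Kinesin and dynein motor genes summed to between 6682 CPM in soma 8 and 12145 CPM in soma 18, a 1.82-fold range and the narrowest among the lists of function. Of 22 motor genes, 10 (45.5%) lay above the trend, against 52.1% of all genes, and the list's median deviation was -0.11. Kif3b, the furthest above, ranged from 0.24 CPM in soma 27 to 1182 CPM in soma 11. Lysosome and proton pump genes summed to within 1.92-fold, with a median deviation of -0.50, and Atp6v1a, a proton pump subunit, ranged from 513 to 3200 CPM. Synaptic vesicle genes had a median deviation of -0.32. Of these, Snap25, a fusion protein, had an SD of 0.86.

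No direction is read from the median deviation of the tubulins, because 3 of the 9 with a spread are among the 20 leading genes, where few genes define the trend. The tubulins' summed level had a 6.05-fold range, from 28822 CPM in soma 11 through a median of 58020 CPM to 174245 CPM in soma 27, so tubulin counts made up a very different share of each cell's gene counts. Tubb3, the neuronal beta-tubulin, lay 1.73 below the trend, between 109 and 676 CPM. Tuba4a lay 1.34 above it, between 0.16 CPM in soma 20 and 2051 CPM in soma 7.

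Lists tied to neuron type and state had medians above the trend, where 52.1% of all genes also lay. Hippocampal field and layer genes had a median deviation of 0.49, with 11 of 12 above, and pyramidal markers 0.48, with 7 of 8 above. The pyramidal markers above include the leading genes Tuba1a and Gap43, where few genes define the trend, so the direction of that list is uncertain. Lmo4, a transcriptional cofactor, was the most abundant of the field and layer genes, from 262 CPM in soma 14 to 8101 CPM in soma 20. Neuropeptide and secretory granule genes had a median of 0.28, with 11 of 14 above. Scg2, secretogranin II, was the member furthest above, from 0.16 CPM in soma 20 to 3272 CPM in soma 8. The 4 intermediate filament genes with a spread all lay above the trend, with a median of 0.87. GABAergic markers had a median of 0.29, and 0.12 without somata 8 and 9.

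Receptor and channel lists were mixed. Voltage-gated channel genes had a median deviation of 0.13, with 14 of 17 above. Scn2a, a sodium channel, had 0 counts in soma 28 and 1268 CPM in soma 22, while Scn3b, an accessory subunit, was found in all somata between 66.4 and 1266 CPM. Glutamate receptor genes had a median of 0.04, which was -0.07 without somata 8 and 9, and their summed level had a 29.6-fold range, from 162 CPM in soma 20 to 4794 CPM in soma 7. Gria2, an AMPA receptor subunit, gave most of that, with 4283 CPM in soma 7. Gabra5, a GABA receptor subunit of hippocampal pyramidal cells, ranged from 1.26 CPM in soma 27 to 3284 CPM in soma 21.

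The 25 immediate early genes summed to between 259 CPM in soma 20 and 4229 CPM in soma 26, a 16.3-fold range. Of the 18 with a spread, 11 (61.1%) lay above the trend, against 52.1% of all genes, with a median deviation of 0.12. Fos had 0 counts in 4 somata, a median of 18.4 CPM and a highest value of 663 CPM in soma 26. Arc had 0 counts in 8 somata and reached 85.1 CPM in soma 11. Bdnf, a neurotrophin, ranged from 0.06 CPM in soma 27 through a median of 325 CPM to 1278 CPM in soma 23. Nr4a3 reached 2232 CPM in soma 26 against a median of 33.3 CPM. Soma 26 was the highest cell for both Fos and Nr4a3. Jund lay 1.84 below the trend, between 21.9 and 493 CPM.

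**Figure D5:**
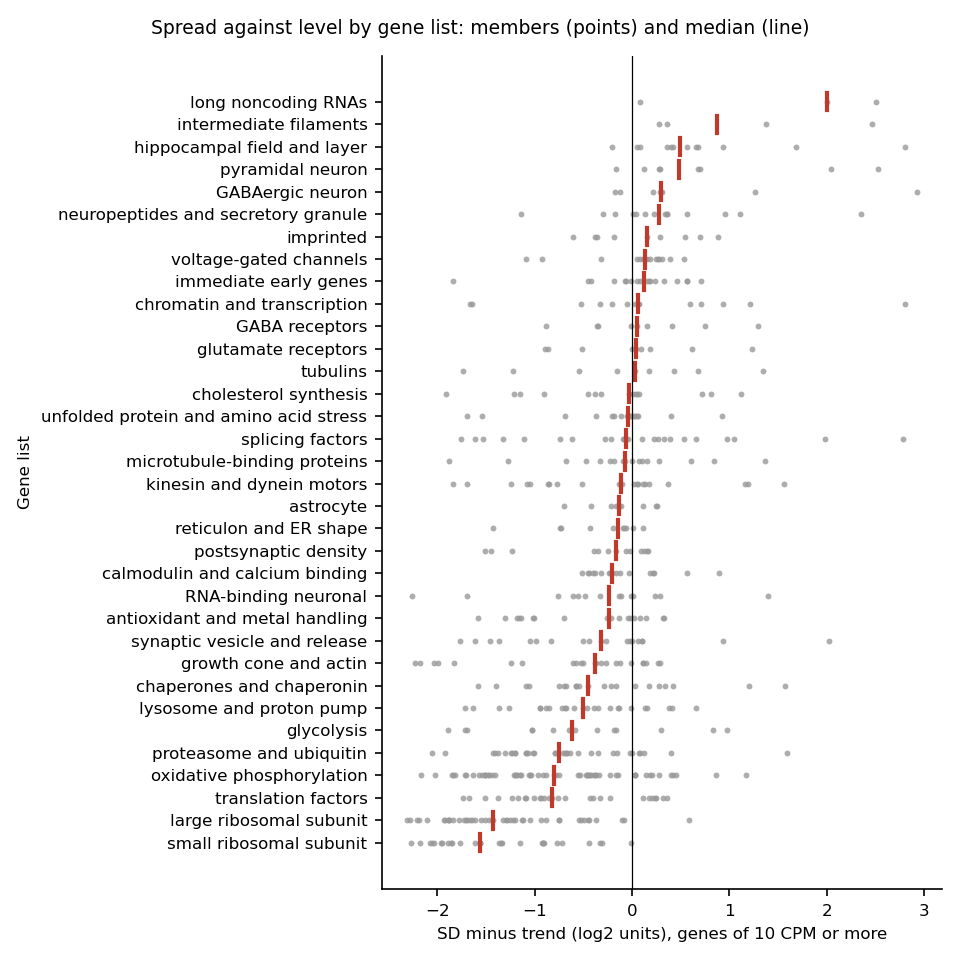
Deviation from the trend (SD minus trend, log2 units, horizontal axis) for genes of 34 lists with 3 or more members at 10 CPM or more, with 1 grey point per gene and a red line at the list median. Ribosomal lists lie lowest with medians of -1.56 and -1.43, and 21 of the 34 medians are below 0.

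Promoter letters were set beside the spread, since the TATA box is a core promoter motif of many highly regulated genes. RefSeq promoters of build GRCr8, from 250 bases before to 50 after the start, matched 1591 of 1936 genes of 100 CPM or more (82.2%), 101 of them through older symbols. The letters TATAAA on either strand occurred in 7.17% of promoters among the 388 genes with the lowest deviation and in 6.91% among the 387 with the highest, ranked in 5 equal classes, against 7.23% of all 1591 and 14.3% of the 27457 promoters in the table. On the gene's strand between 45 and 16 bases before the start, the shares were 2.18% (7 promoters) and 1.32% (4 promoters). In that window the share was 1.63% of all 1591 and 1.79% over the table. Median GC content was 62.0% in the lowest and 61.8% in the highest class. The share of promoters with these letters on either strand therefore hardly differed along the range of spread, between 6.75% and 7.74% in the 5 classes. In the window before the start, too few promoters held the letters to compare the classes.

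The motif stood in that window in 7 named genes of 100 CPM or more, of which the 2 lowest and the 2 highest in deviation are shown. Their sequences let the reader set the same letters beside unequal spread: the SD was 0.61 for Ppia, 0.74 for Gapdh, 1.60 for Sod1, an antioxidant enzyme, and 1.54 for H3f3b, a replacement histone. Each run is the 50 bases before the start, 5′ to 3′ on the gene's strand, with TATAAA in capitals. In build GRCr8 they are chr14:85493166-85493215 on the plus strand for Ppia, chr4:159652468-159652517 on the minus strand for Gapdh, chr11:42942773-42942822 on the plus strand for Sod1 and chr10:101757637-101757686 on the minus strand for H3f3b.
Ppia: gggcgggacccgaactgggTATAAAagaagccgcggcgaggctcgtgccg
Gapdh: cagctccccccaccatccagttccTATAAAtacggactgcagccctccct
Sod1: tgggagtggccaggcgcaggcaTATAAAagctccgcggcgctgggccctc
H3f3b: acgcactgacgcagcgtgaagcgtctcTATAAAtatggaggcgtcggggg

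Similarity between whole profiles was moderate. Over 5914 genes, the Spearman correlation of log2(CPM + 1) averaged 0.438 ± 0.046 over the 120 pairs of somata (SD), from 0.345 to 0.546. The pairs share cells and are not independent, so this is a description across genes. Soma 9 had the highest mean correlation with the others, at 0.496, and soma 28 the lowest, at 0.400. Soma 9 also had the most genes with at least 1 count, 8064, and soma 28 the fewest, 4427. The part of the number of genes found in this order was not tested. The highest correlations of single pairs were nearly equal: 0.5461 for somata 8 and 9, 0.5457 for somata 9 and 14 and 0.5453 for somata 9 and 25.

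Pairs of cells also shared genes that few others held. At a minimum of 10 counts, 785 genes were found in exactly 2 somata, with a median of 4 such genes per pair of somata. The most were shared by somata 7 and 13 with 35, followed by somata 9 and 13 with 34, somata 8 and 13 with 32 and somata 7 and 9 with 28. These 4 somata also had the most genes found and the lowest spike-in shares, and the part of either in this sharing was not tested. Without these 4 somata, the median SD over genes was 2.77.

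Spike-ins were used as a technical reference, with the limit that the labels do not say whether each soma received the same mixture and amount. Of 92 spike-in rows, 59 had no count in any soma, 7 had counts in all 16 and 26 in some. ERCC-00130 had between 470 counts in soma 25 and 58138 in soma 18. As a share of its library's spike-in counts its SD was 0.79 in log2 units, and those of the other 6 found in every soma were between 0.79 and 1.83. Rarer spike-ins switched between high counts and none. ERCC-00009 had 0 counts in somata 8, 9, 13, 25 and 26, yet 8767 counts in soma 18, and ERCC-00042 had 0 counts in 7 somata and 5007 counts in soma 23. Zero counts beside high counts thus occurred among spike-ins as among genes.

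Genes and spike-ins were then compared in 2 ways, which gave different orders. The first matched depth, not the level in the full library. For example, ERCC-00116, at 1045 CPM of the spike-in total, was at 14.4 CPM of the gene total. With genes thinned in each library to the spike-in total and both expressed as CPM of their own total, the 21 spike-ins at 1000 CPM of that total or more had a median SD of 3.30 and 33.0% of values at 0, against 1.05 and 2.07% for 127 genes. In that comparison spike-ins were more variable than genes, but many were set against genes of higher level in the full library. With spike-ins expressed as CPM of the gene total, the 20 at 10 CPM or more had a median SD of 2.46, against 2.85 for the medians of the 101 genes nearest to each in level, and 11 of the 20 lay above their nearest genes. Their median number of somata at 0 was 4, against 2 for the nearest genes.

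At the highest level the order again depended on the scale. The 3 spike-ins at 1000 CPM of the gene total or more had SDs of 1.67, 1.82 and 2.41 relative to the gene total, all above the median of 0.97 for the 131 genes of that class. Relative to the spike-in total, set at the mean level of the gene total, their SDs were 0.79, 0.79 and 1.80. The ratio of spike-in to gene counts itself had an SD of 1.39 in log2 units over the 16 somata and enters the first set of values but not the second. At 100 to 1000 CPM, 6 spike-ins had a median SD of 2.15 relative to the gene total and 1805 genes 2.73. At 10 to 100 CPM, 11 spike-ins had a median of 3.04 and 3978 genes 2.66. Crym, chosen as the gene furthest above the trend, had an SD of 4.16 at 1750 CPM and lay above the 3 spike-ins of that class. Rpl13, the large subunit gene furthest below the trend, had an SD of 0.68 at 165 CPM. It lay below the lowest SD of any spike-in at 100 to 1000 CPM. That lowest SD was 1.48 relative to the gene total and 1.16 relative to the spike-in total. Rpl13 does not stand for its list, since the median SD was 1.19 for large and 1.01 for small subunit genes of 10 CPM or more.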

How the data were processed

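Poly-A RNA of 16 single neuron somata was measured. The authors deposited whole-number counts per gene symbol for each library, and these counts were used as deposited. Per the submitters' processing notes, the build was rn6. The aligner, annotation, strand handling and treatment of multi-matching reads are not given in the sources used here. The 92 spike-in rows were removed before gene totals. CPM, SD of log2(CPM + 1), a lowess trend (span 0.1) and zeros were computed in Python 3.11.15 with pandas 2.3.3 and statsmodels 0.14.6, for genes of 10 CPM or more, and tested on simulated data. For spike-ins at their own total, the pseudocount was 10 CPM. Alternatives used TMM and dispersions from edgeR 4.0.16, DESeq2 1.42.0 size factors, other pseudocounts, minima and trends, thinning, and leaving out libraries. Named genes were the 20 of highest mean CPM, the 10 of highest and of lowest deviation and the 10 with most zeros at 100 CPM or more, 4 members per list, and fixed genes. Of 815 symbols in 39 lists, 777 were in the files. Members and lists were chosen with earlier results of these data known. Dendrite libraries were not used here. A few named genes are left out of the text.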

Additional observations from a re-analysis of the deposited data

How the results depend on the processing

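Values that moved were as follows. Genes found in every soma fell from 1499 to 955 at 5 counts or more and to 883 after thinning. Zeros among genes of 100 CPM or more rose from 5.60% to 11.1% after thinning. The median spread of 2.65 was 3.82 with a pseudocount of 0.1 CPM, 1.53 with 10 CPM, 1.80 with no filter on low counts, 2.88 for genes of 50 CPM or more and 2.77 without somata 7, 8, 9 and 13. The spread of genes of 1000 CPM or more was 1.08 with DESeq2 size factors in place of 0.97. The mean correlation between somata of 0.438 was 0.345 over the 1000 genes of highest mean CPM and 0.411 without somata 7, 8, 9 and 13. The difference in median SD between spike-ins and genes, 2.25, was 3.36 with a pseudocount 10 times smaller, 0.63 unthinned at matched mean counts, -0.39 with spike-ins scaled to the gene total and -0.33 with the spike-in total set at the gene level. Of the 100 genes of largest deviation, edgeR's biological coefficient of variation shared 24, and the other alternatives shared 72 or more. The cause of the low overlap was not tested.

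Leaving out each soma gave 1499 to 1651 genes found in every soma, 5.17 to 6.01% zeros, a median spread of 2.62 to 2.69 (0.91 to 1.00 at 1000 CPM or more), correlations of 0.429 to 0.443, and 19 to 20 of the 20 leading genes. The spike-in difference ranged from 2.16 to 3.39, the latter without soma 27. Of the 100 deviating genes, 81 to 96 were shared, and 20 to 22 list medians lay below 0. Over 34 lists, 34 of 442 alternative medians had the other sign, in 12 lists, and over 159 named genes 131 of 2044. Settings with the mean log2 level, or without somata 7, 8, 9 and 13 or somata 8 and 9, and the spike-in total at the gene level, were chosen after seeing the data. No paired analysis was possible because no groups were compared and the values come from no test. Depth limits genes under about 3.42 CPM in soma 25.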
